A study of Mus musculus with 4 samples.

Results

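The regions described here were bound by TLE3 in cultured brown adipocytes and in 1 of the 2 white adipocyte cultures, but not listed in the other. They were selected on the read values of the TLE3 and input libraries, through the authors' lists: each stood in the brown list and, under the same identifier, in exactly 1 of the 2 white lists. Of 69599 listed regions, 1825 met this rule. In 995 of them the white list was the inguinal one (BAT+iWAT), and in 830 it was the epididymal one (BAT+eWAT). For scale, 11034 regions were in all 3 lists, 23021 in both white lists without the brown one, and 2183, 15406 and 16130 in the BAT, iWAT and eWAT list alone.

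The study profiled where TLE3 sits on chromatin (ChIP-seq) in adipocytes made from 3 mouse fat depots, with 1 library each: brown fat (BAT, pooled interscapular, cervical and axillary), inguinal white fat (iWAT) and epididymal white fat (eWAT). All cells were precursors of the stromal-vascular fraction of male NMRI mice aged 4 to 5 weeks, pooled from 10 to 15 mice, and all were differentiated with 30 nM insulin and 1 µM rosiglitazone, an agonist of the nuclear receptor PPARγ, until day 8 after plating. Cultures were kept above 50% differentiation, so undifferentiated cells remained. The fourth library was input chromatin from iWAT adipocytes, which served beside all 3 depots. With 1 library per depot there is no replicate check, and a depot and its library cannot be told apart. Fewer cells with TLE3 at a region and less TLE3 per cell cannot be told apart either. Expression was not measured, so the labelled cell types could not be checked against the RNA of their markers.

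TLE3 belongs to the Groucho family of corepressors. These proteins do not bind DNA by themselves but are brought to it by transcription factors, among them TCF/LEF and HES proteins, and they recruit histone deacetylases. In adipocytes TLE3 is known as a partner of PPARγ in fat cell differentiation and as an opponent of PRDM16 in the choice between white and brown gene programs. Whether a TLE3 region represses, activates or leaves alone a given gene is not shown by a binding profile.

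Most members lay far from promoters, and the genome sequence of the build used by the files is not used here. The sequences that can be shown are those of members lying on a start site whose promoter is in RefSeq (GRCm38.p6). Of the members covering at least 90 of the 250 bases before a start site, 8 BAT+iWAT and 14 BAT+eWAT regions, 1 and 9 had a RefSeq start site with the same spacing to at least 3 neighbouring start sites, within 5 bases, as the deposited distances give. Of these, 4 are printed as examples of the bases that members covered: the single BAT+iWAT one, 2 of the 3 strongest BAT+eWAT ones, and that of Acsl1, which belongs to the lipid list used below. Each is the 250 bases before the start site, all on the plus strand, and capitals mark the bases that the member covered, 179, 231, 187 and 99 in this order. Irf5 encodes an interferon regulatory factor (chr6:29526375-29526624), Upp1 uridine phosphorylase (chr11:9117758-9118007), Syn2 the synaptic vesicle protein synapsin II (chr6:115238744-115238993), and Acsl1 a long-chain acyl-CoA synthetase that feeds fatty acids into lipid metabolism (chr8:46490716-46490965).
Irf5, BAT+iWAT: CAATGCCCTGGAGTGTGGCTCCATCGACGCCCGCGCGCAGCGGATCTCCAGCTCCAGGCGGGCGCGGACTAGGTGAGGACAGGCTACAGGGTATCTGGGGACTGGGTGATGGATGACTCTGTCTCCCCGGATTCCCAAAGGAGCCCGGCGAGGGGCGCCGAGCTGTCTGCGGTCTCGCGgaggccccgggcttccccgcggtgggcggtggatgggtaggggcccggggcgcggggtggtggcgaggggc
Upp1, BAT+eWAT: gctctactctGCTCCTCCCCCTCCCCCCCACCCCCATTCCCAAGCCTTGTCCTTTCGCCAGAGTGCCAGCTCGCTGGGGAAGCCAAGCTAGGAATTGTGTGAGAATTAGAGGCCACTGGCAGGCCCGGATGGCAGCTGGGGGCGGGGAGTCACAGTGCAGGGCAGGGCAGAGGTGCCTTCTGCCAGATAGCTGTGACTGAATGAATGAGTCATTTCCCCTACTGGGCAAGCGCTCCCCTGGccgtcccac
Syn2, BAT+eWAT: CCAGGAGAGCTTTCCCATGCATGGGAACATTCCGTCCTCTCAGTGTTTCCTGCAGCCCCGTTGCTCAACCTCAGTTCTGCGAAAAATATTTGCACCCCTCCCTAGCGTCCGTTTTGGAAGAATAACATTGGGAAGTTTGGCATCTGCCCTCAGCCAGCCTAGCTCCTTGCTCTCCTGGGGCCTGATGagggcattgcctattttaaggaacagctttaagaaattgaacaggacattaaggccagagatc
Acsl1, BAT+eWAT: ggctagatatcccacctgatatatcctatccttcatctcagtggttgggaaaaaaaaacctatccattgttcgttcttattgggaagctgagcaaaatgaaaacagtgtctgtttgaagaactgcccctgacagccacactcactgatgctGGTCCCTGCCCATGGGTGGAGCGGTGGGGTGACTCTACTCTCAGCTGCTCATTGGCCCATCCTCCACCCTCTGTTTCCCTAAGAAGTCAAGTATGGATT

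The 4 promoters differed in base composition. Irf5 was 72.0% G or C with 25 CpG, Upp1 62.4% with 6, Syn2 50.4% with 5 and Acsl1 48.4% with 2, beside a median of 53.2% over the 9 BAT+eWAT promoters and of 52.4% over the 32851 promoters of the table. Inside the covered bases, Upp1 held 1 AP-1 match (TGANTCA, bases 45 to 39 before the start) and 1 GC box (GGGCGG, bases 111 to 106). Syn2 held 1 C/EBP match (TTGCNNAA, bases 190 to 183) and 1 short NF1 match (TTGGCA, bases 114 to 109). Both also held the TEAD letters GGAATG on the other strand. The search covered both strands and 18 motifs, and it found no match in Irf5 inside the covered bases or in Acsl1. Of all promoters of the table, 6.75% hold the AP-1 letters, 32.7% the GC box, 9.56% the C/EBP letters, 12.3% the short NF1 letters and 12.6% the TEAD letters, so each match is common and is given as a description only.

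Values are reads in a region of 230 bp after the authors' scaling for library size (scaled reads). The Irf5 promoter region had 38.7 scaled reads in BAT, 78.3 in iWAT, 16.8 in eWAT and 1.95 in the input. The Upp1 region had 36.0 in BAT and 28.3 in eWAT, against 12.1 in iWAT and 1.95 in the input. The Syn2 region had 85.7 in BAT and 81.2 in eWAT, against 50.5 in iWAT and 5.86 in the input. At the Acsl1 start site the values were 30.4 in BAT and 24.7 in eWAT, against 11.6 in iWAT and 1.30 in the input. At Upp1 and Acsl1 the third library was below 15 scaled reads and below 10 times the input, while at Irf5 and Syn2 it was above 15 and below 10 times the input. Members of the most frequent kind, below 15 scaled reads but at least 10 times the input, are not among these 4.

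The lists fix what membership means. No listed region fell below 15 scaled reads or below 10 times the input in the library that listed it. Both limits were inferred from the tables themselves. In eWAT, 9 regions met both limits without being listed. The lowest listed value was 16.6 in BAT, 15.2 in iWAT and 15.0 in eWAT, which were 6, 29 and 17 reads if the smallest step between values, 2.77, 0.526 and 0.883 scaled reads, is 1 read. That step was inferred from the values, and every counting interval given here rests on it. Counting error alone puts 6.09 to 36.1, 10.2 to 21.9 and 8.75 to 24.0 scaled reads around these values (exact 95% Poisson intervals). The BAT library was thus the least precise of the 3, and 215 BAT+iWAT members (21.6%) and 133 BAT+eWAT members (16.0%) stood at its lowest listed value.

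The 2 groups differed in how far the unlisted white library fell behind. In BAT+iWAT regions the median was 22.1 scaled reads in BAT, 32.6 in iWAT, 11.5 in eWAT and 1.30 in the input. In BAT+eWAT regions it was 24.9 in BAT and 25.6 in eWAT, against 13.1 in iWAT and 1.30 in the input. The median log2 ratio of iWAT over eWAT, with 1 scaled read added to both, was 1.58 in BAT+iWAT and -0.84 in BAT+eWAT regions. Since membership was decided by these same values, the signs are given by the rule and only the sizes describe the groups.

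iWAT was at least 2-fold over eWAT at 667 of 995 BAT+iWAT members (67.0%), where 21.5% of all 69599 regions had such a ratio, and at least 4-fold at 379 (38.1%), where 9.65% of all regions did. eWAT was at least 2-fold over iWAT at 324 of 830 BAT+eWAT members (39.0%), where 18.4% of all regions had that ratio, and at least 4-fold at 38 (4.58%), where 5.46% of all regions did. The rule used these ratios, so nothing is read from the members' shares against those of all regions. Side by side, a 4-fold gap between the white libraries was common among BAT+iWAT members and rare among BAT+eWAT members. The regions listed in 1 white depot without BAT held 39.3% with iWAT at least 4-fold over eWAT (iWAT alone) and 22.6% with eWAT at least 4-fold over iWAT (eWAT alone). The 95% counting interval of the ratio reached 1 in 263 BAT+iWAT members (26.4%) and in 341 BAT+eWAT members (41.1%), whose 2 white values can therefore not be separated at this depth. The intervals make no allowance for the choice of members on these same values. The remaining members are therefore not shown to differ between the depots.

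**Figure D1:**
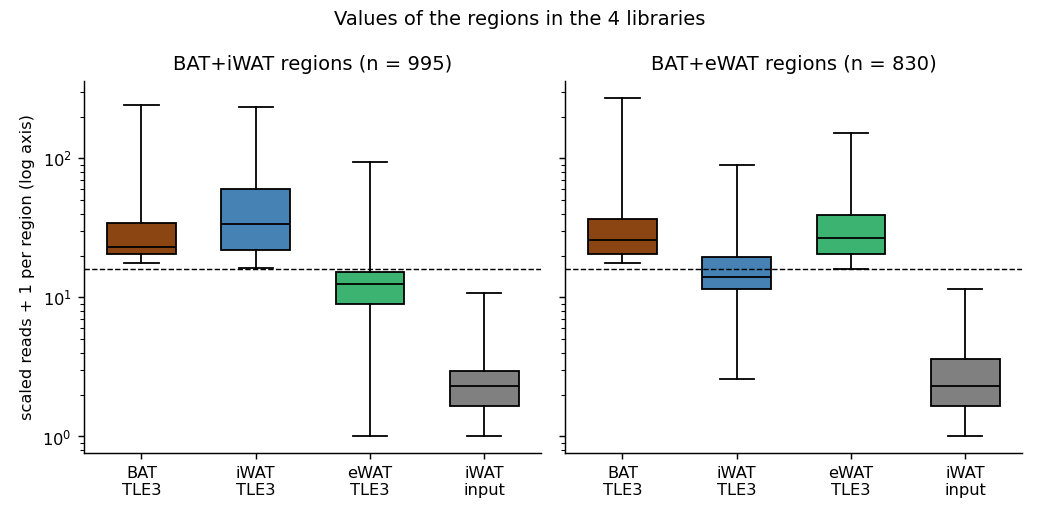
Scaled reads plus 1 (log axis) of the 995 BAT+iWAT and 830 BAT+eWAT regions in each library. Boxes run over the quartiles with the median as a line, whiskers over the whole range, and the dashed line is the limit of 15 scaled reads; the white library without a listing has a median of 11.5 on the left and 13.1 on the right.

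The third library missed its list in different ways. It was below 15 scaled reads but at least 10 times the input in 450 BAT+iWAT members (45.2%) and 376 BAT+eWAT members (45.3%). It was at or above 15 but below 10 times the input in 199 (20%) and 266 (32.0%), and below both limits in 346 (34.8%) and 188 (22.7%). A value from 10 to below 15, just under the limit, was found in 384 BAT+iWAT members (38.6%) and in 377 BAT+eWAT members (45.4%). A value below 5 was found in 132 (13.3%) and in 18 (2.17%). No eWAT read at all was counted at 12 BAT+iWAT members, where 0 reads allows up to 2.65 scaled reads, while every BAT+eWAT member had iWAT reads. Such low values were more frequent in the regions of the same white list without BAT: 29.9% of iWAT-alone regions had less than 5 in eWAT, and 19.7% of eWAT-alone regions had less than 5 in iWAT.

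The members nearest the limits show how little separates some of them from other lists. The BAT+iWAT regions next to Mir7656, Hccs and Spin4 had 14.1 scaled reads in eWAT and so were members, while those next to Cdh7, Mettl21e and Adam23, at 15.0, were in all 3 lists. In BAT+eWAT the regions next to Hcn4, 4930554C24Rik and Mid1ip1 had 14.7 in iWAT, and those next to Gpr39, Nck2 and Mir3059, at 15.2, were in all 3 lists. On the brown side, 16.6 scaled reads in BAT made members of the regions next to Serpinb8 and Vps4b, and 13.8 kept those next to Zfx and Apln out.

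**Figure D2:**
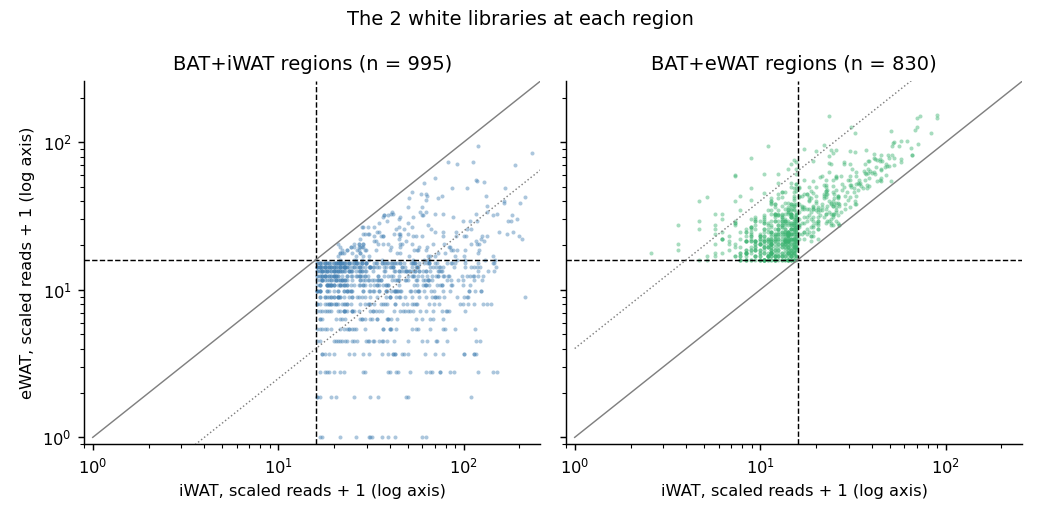
iWAT against eWAT scaled reads plus 1 (log axes) at each BAT+iWAT region, left, and each BAT+eWAT region, right. Dashed lines are the limit of 15 scaled reads, the solid line equal values and the dotted line a 4-fold ratio, which 379 BAT+iWAT and 38 BAT+eWAT regions pass.

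The median log2 ratio of BAT over the listed white library was -0.35 in BAT+iWAT and -0.005 in BAT+eWAT regions on the authors' scale. The direction depends on the scale: with the median ratio over the regions of all 3 lists set to 1 the medians were 0.32 and 0.74, and with the strongest 25% of all regions 1.11 and 1.41. Among regions of 1 white list, the share also listed in BAT was 6.07% for iWAT without eWAT and 4.89% for eWAT without iWAT, and 32.4% for regions of both white lists. At 60 scaled reads or more in white it was 13.0%, 6.14% and 52.3% in this order, and at 15 to below 30 it was 4.81%, 4.68% and 16.1%. For eWAT without iWAT the rise was small, and the intervals overlapped, 4.29 to 5.09 at the low and 4.98 to 7.53 at the high values.

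Position was not used to choose the members. BAT+iWAT regions lay further from genes than BAT+eWAT regions, with a median distance to the nearest start site of 52.1 kb (95% interval 46.1 to 58.6) and 31.3 kb (26.4 to 36.1). Over 100 kb away lay 33.7% and 19.5% of them, a difference of 14.2 points (10.1 to 18.1). Within 1 kb lay 25 regions (2.51%) and 41 regions (4.94%), a difference of -2.43 points (-4.30 to -0.69). Intergenic regions made up 54.8% and 45.7%, and introns 41.1% and 47.6%. All of these intervals cover counting error among regions, which share neighbourhoods and libraries, and say nothing about other cultures.

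Far from genes, each group resembled the regions listed in its white depot alone. Near start sites its share was somewhat higher. Of the 1 kb and 5 kb windows, the interval missed 0 within 5 kb in BAT+iWAT and within 1 kb in BAT+eWAT. For regions annotated as promoter it missed 0 in both groups. These made up 1.91% of BAT+iWAT and 1.09% of iWAT-alone regions, a difference of 0.82 points (0.11 to 1.88). In BAT+eWAT and eWAT alone they made up 3.61% and 2.49%, a difference of 1.13 points (0.03 to 2.64). iWAT-alone regions had a median distance of 53.6 kb, 33.0% over 100 kb and 54.9% intergenic. eWAT-alone regions had 31.0 kb, 20.8% and 46.0%. The difference of BAT+iWAT from iWAT alone was 0.71 points (-2.25 to 3.80) over 100 kb and -0.09 points (-3.29 to 3.08) for intergenic regions, and that of BAT+eWAT from eWAT alone was -1.32 points (-3.96 to 1.58) and -0.38 points (-3.83 to 3.11). Within 5 kb of a start site lay 10.35% of BAT+iWAT and 8.19% of iWAT-alone regions, a difference of 2.17 points (0.37 to 4.26). Within 1 kb lay 4.94% of BAT+eWAT and 3.47% of eWAT-alone regions, a difference of 1.47 points (0.16 to 3.19). The intervals reached 0 for BAT+iWAT within 1 kb, 0.77 points (-0.07 to 1.95), and for BAT+eWAT within 5 kb, 2.19 points (-0.22 to 4.90). Within BAT+iWAT the gap between the white libraries was widest far from genes: 169 of 335 regions over 100 kb away (50.4%) had iWAT at least 4-fold over eWAT, against 201 of 635 (31.7%) at 1 to 100 kb. The median log2 gap there was 2.02, against 1.36. In BAT+eWAT the median gap was 0.95 over 100 kb away, against 0.83 at 1 to 100 kb, and a 4-fold gap was found at 6 of 162 and 29 of 627 regions.

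**Figure D3:**
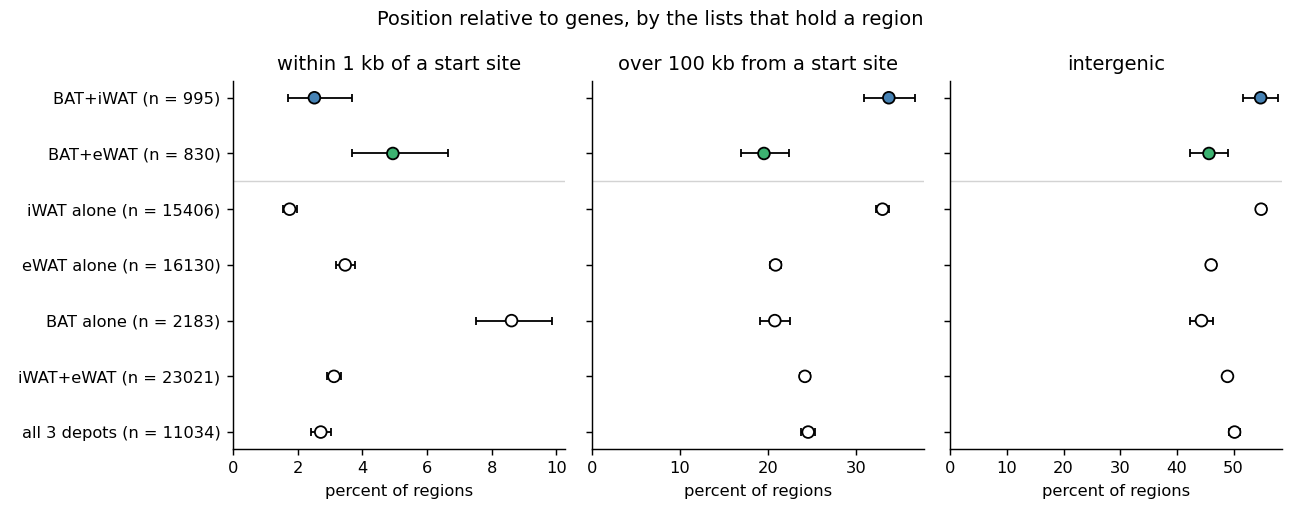
Percent of regions (points, with Wilson 95% intervals) within 1 kb of a start site, over 100 kb from one and intergenic, for the 2 member groups above the line and the other classes of listed regions below it. BAT+iWAT sits at 33.7% over 100 kb beside 33.0% for iWAT alone, and BAT+eWAT at 19.5% beside 20.8% for eWAT alone.

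Another listed region lay within 10 kb of 63.5% of BAT+iWAT and 65.1% of BAT+eWAT members, near the 64.4% of all 69599 regions. The shares were 60.3% for iWAT alone and 59.5% for eWAT alone, differences of 3.18 points (0.04 to 6.21) and 5.60 points (2.21 to 8.86). Regions of all 3 lists had 71.1%, more than either group, by -7.61 points (-10.8 to -4.55) and -6.07 points (-9.48 to -2.79). The nearest other region was an iWAT-alone one for 30.9% of BAT+iWAT and 14.2% of BAT+eWAT members, where 21.6% of all regions had such a neighbour. It was an eWAT-alone one for 16.0% and 25.7%, against 22.5% of all regions. It was a region of all 3 lists for 16.3% and 24.3%, a difference of -8.06 points (-11.8 to -4.36). Of all regions 16.3% had such a neighbour, so BAT+eWAT stood above that share and BAT+iWAT did not. Both groups stood above the regions of their white list alone, with 12.8% for iWAT alone and 13.8% for eWAT alone. The differences were 3.48 points (1.25 to 5.96) for BAT+iWAT and 10.5 points (7.66 to 13.6) for BAT+eWAT. Regions of 1 white list without BAT also lay beside their own kind, with 32.1% for iWAT alone and 30.8% for eWAT alone. On 4 chromosomes the interval of the difference between the groups did not reach 0, without adjustment for the number of chromosomes. Chromosome 10 held 7.24% of BAT+iWAT and 3.01% of BAT+eWAT members, against 5.57% of all regions, and chromosome 3 held 7.64% and 4.46%, against 6.07%. Chromosomes 5 and 11 each held 4.12% and 6.87%, against 5.71% and 5.64% of all regions.

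The 10 strongest BAT+iWAT regions, ranked by the lower of their BAT and iWAT values, had from 21.2 to 93.6 scaled reads in eWAT and were held off its list by the input limit alone. The first lay 93.7 kb from Mir6348, with 202 scaled reads in BAT, 199.7 in iWAT, 38.0 in eWAT and 6.51 in the input. A region 10.3 kb from Pdcd4, which encodes an inhibitor of translation initiation, had 149 in BAT, 214 in iWAT, 41.5 in eWAT and 5.21 in the input. A region 199.5 kb from Tle1, another Groucho gene, had 147 in BAT, 206 in iWAT, 21.2 in eWAT and 7.81 in the input. iWAT exceeded eWAT 5.26-fold (counting interval 3.83 to 7.39), 5.15-fold (3.80 to 7.13) and 9.72-fold (6.44 to 15.4) at these 3. Over the 10 the ratio ran from 1.27 to 9.72 with a median of 2.76.

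The 10 strongest BAT+eWAT regions, ranked by the lower of their BAT and eWAT values, were likewise held off the iWAT list by the input limit alone. Their ratio of eWAT over iWAT ran from 1.38 to 3.54 with a median of 1.86, a range that overlaps that of the BAT+iWAT ones. A region 108 kb from Cxcl12, a chemokine made by stromal cells, had 221 in BAT and 151 in eWAT, against 88.8 in iWAT and 10.4 in the input. A region 77.9 kb from Rxra, the nuclear receptor that pairs with PPARγ, had 105 in BAT and 115 in eWAT, against 83.0 in iWAT and 9.76 in the input. Within Gfod1 the values were 199 in BAT and 101 in eWAT, against 61.0 in iWAT and 6.51 in the input. The ratio of eWAT over iWAT was 1.70 (1.37 to 2.12), 1.38 (1.09 to 1.76) and 1.65 (1.26 to 2.16).

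The members with the widest white gap looked different in the 2 groups. At BAT+iWAT regions 951 kb from Mdga2 and 107 kb from Epha3 (an ephrin receptor gene), iWAT had 61.5 and 58.3 scaled reads and BAT 24.9 and 22.1, with 0 reads in eWAT and in the input. Against the floor of 3 reads, iWAT was at least 23.2-fold and 22.0-fold higher than eWAT. A region 156 kb from Dkk2, a secreted Wnt inhibitor, had 19.4 in BAT, 118 in iWAT, 1.77 in eWAT and 1.30 in the input. In BAT+eWAT the widest gaps were smaller: a region 15.0 kb from Rapgef5 had 24.9 in BAT and 77.7 in eWAT, against 7.88 in iWAT and 0.65 in the input, 9.86-fold (5.66 to 18.4). A region 54.2 kb into St6gal1, a sialyltransferase gene, had 19.4 in BAT and 38.9 in eWAT, against 3.68 in iWAT and 0 in the input, 10.6-fold (4.72 to 27.8).

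More genes had several members in BAT+iWAT, which held 995 members against 830 and lay further from genes. Whether these 2 traits account for it was not tested. Some of these genes were far from their members, such as Fam181b at 831 to 1044 kb. Of 14265 genes nearest to any listed region, 880 were nearest to a BAT+iWAT member and 771 to a BAT+eWAT member. Of these, 14 in BAT+iWAT and 4 in BAT+eWAT had 3 or more members. Members of both groups had 89 nearest genes in common, and whether that is many or few was not tested. Tbx15, a T-box factor of trunk and limb mesenchyme known as a mark of subcutaneous over visceral fat, had 6 BAT+iWAT members, the most of any gene in either group. They lay 6.94 kb before to 235 kb after its start. Their values ran from 16.6 to 41.5 scaled reads in BAT, from 28.4 to 116 in iWAT and from 0 to 4.42 in eWAT. The strongest, an intronic region at chr3:99096722-99096952 (mm9), had 41.5 in BAT, 116 in iWAT, 3.53 in eWAT and 2.60 in the input, with iWAT 32.9-fold over eWAT (12.7 to 121.7). Of the 19 listed regions nearest to Tbx15, 8 more were iWAT alone, 2 BAT alone, 2 in both white lists and 1 in all 3, and none was in the eWAT list alone or in BAT+eWAT.

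**Figure D4:**
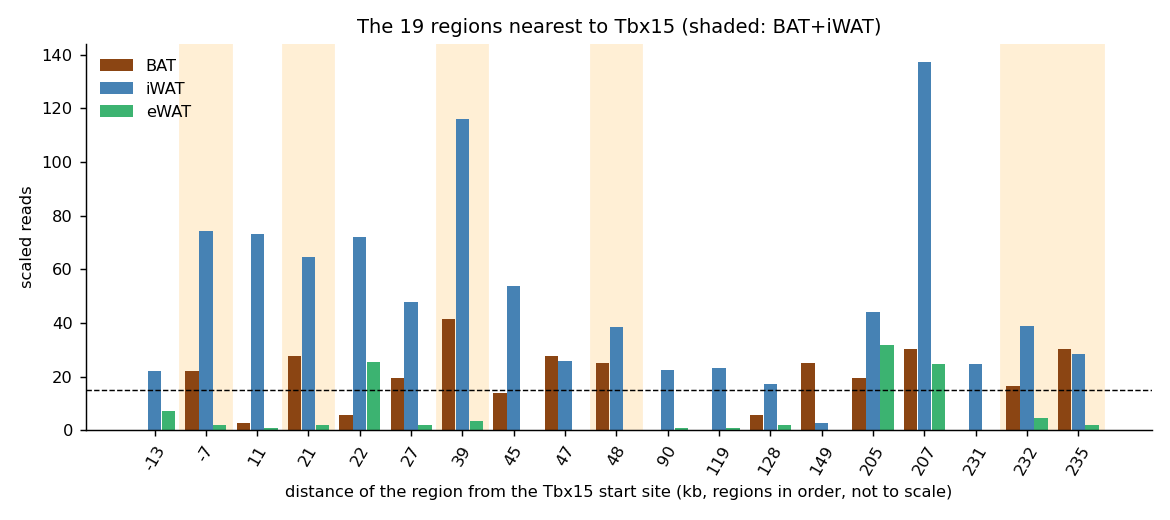
Scaled reads in BAT, iWAT and eWAT (bars) at the 19 listed regions nearest to Tbx15, ordered by distance from its start site, with the limit of 15 as a dashed line. At the 6 shaded BAT+iWAT regions eWAT stays at or below 4.42 while BAT is between 16.6 and 41.5.

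Other genes with several BAT+iWAT members were Lmo4, a LIM-domain cofactor, with 3, Xylt1, a xylosyltransferase of proteoglycan synthesis, with 3, and Grb14, an adaptor that dampens insulin receptor signalling, with 3. Their eWAT values were not uniformly low. At Lmo4 the 3 regions had 47.7, 15.9 and 7.06 scaled reads in eWAT, beside 85.1, 99.3 and 19.4 in iWAT. In BAT+eWAT the genes with 3 members were Bahcc1, a chromatin protein gene, Ppp2r5a, a regulatory subunit of protein phosphatase 2A, 4930563F08Rik and Mir7021. The Bahcc1 regions had 49.8, 124 and 66.4 in BAT and 54.8, 87.4 and 93.6 in eWAT, against 21.6, 36.3 and 55.2 in iWAT.

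Of 13381 genes with any listed region within 50 kb of their start, 467 (3.49%) had a BAT+iWAT member and 491 (3.67%) a BAT+eWAT member there. Of the 285 such genes in the 16 lists, the numbers were 25 (8.77%) and 16 (5.61%). The lists were not matched for the number of listed regions per gene. No test of a list was made, and no single list had more than 5 genes with a member of either group.

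**Figure D5:**
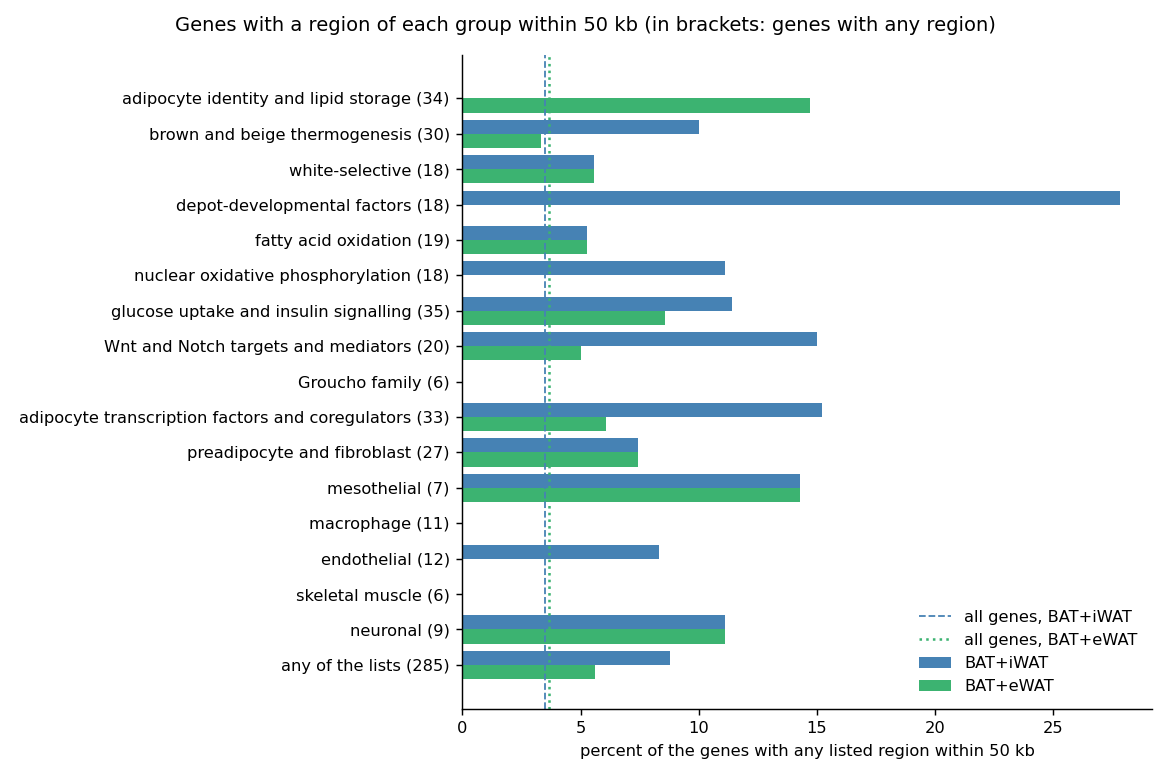
Percent of the genes of each list, among those with any listed region within 50 kb (number in brackets), that had a BAT+iWAT or a BAT+eWAT member there; vertical lines give the same percent over all genes, 3.49% and 3.67%. Depot-developmental factors had 27.8% in BAT+iWAT and 0 in BAT+eWAT, adipocyte identity and lipid storage 0 and 14.7%. With 18 and 34 genes in these lists, neither 0 is set apart from the percent over all genes.

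Of 18 developmental factors that mark fat depots, Ebf3, Irx5, Tbx15, Tbx18 and Wt1 had 9 BAT+iWAT members within 50 kb. These were 27.8% of the genes, where 3.49% of all genes had such a member. None of the 18 had a BAT+eWAT member. Of all genes, 3.67% had a BAT+eWAT member there, and none among 18 is not set apart from that share. More of the 18 had regions of other kinds within 50 kb: 10 had an iWAT-alone region, 9 one of both white lists and 7 an eWAT-alone one. Those classes are far larger. Of the regions within 50 kb of a start, the list held 1.86% in BAT+iWAT, from 5 genes, with more of them at Tbx15 than at any other. It held 0.242% in iWAT alone, 0.0821% in both white lists, 0.129% in eWAT alone, 0.215% in BAT alone and 0.0792% in all 3 lists. The difference was not tested. An intronic region of Wt1, a factor of mesothelium and visceral fat precursors, had 41.5 scaled reads in BAT, 117 in iWAT, 28.3 in eWAT and 3.25 in the input, with iWAT 4.13-fold over eWAT (2.84 to 6.18). A region 15.7 kb from Irx5, an Iroquois homeobox factor, had 30.4 in BAT, 37.8 in iWAT, 5.30 in eWAT and 1.30 in the input (7.14-fold, 3.13 to 20.1). A region in Ebf3, an early B cell factor family member, had 33.2 in BAT, 41.0 in iWAT, 8.83 in eWAT and 1.95 in the input.

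Thermogenic genes had 3 BAT+iWAT members, at Adrb1, Ebf2 and Irf4, of 30 genes (10%), and 1 BAT+eWAT member, at Fabp3 (3.33%). Of all genes, 3.49% and 3.67% had such members, so the BAT+eWAT share lay near that of all genes. The BAT+iWAT difference was not tested. Adrb1 encodes the β1-adrenergic receptor; a region 21.3 kb from it (chr19:56775467-56775697, mm9) had 105 in BAT, 189 in iWAT, 68.9 in eWAT and 7.81 in the input. Ebf2 encodes a factor that marks brown and beige precursors, and an intronic region had 96.8 in BAT, 108 in iWAT, 28.3 in eWAT and 4.56 in the input. Irf4, a transcriptional partner of PGC-1α in thermogenesis, had a region with 16.6 in BAT, 41.0 in iWAT, 14.1 in eWAT and 0.65 in the input. iWAT exceeded eWAT 2.74-fold (2.14 to 3.55), 3.81-fold (2.62 to 5.72) and 2.90-fold (1.68 to 5.32). Fabp3, a fatty acid binding protein of oxidative tissues, had a region 9.52 kb away with 24.9 in BAT and 30.0 in eWAT, against 9.46 in iWAT and 0 in the input.

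Of 34 identity and lipid storage genes of adipocytes, Acsl1, Agpat2, Cebpa, Lep and Pcx had 6 BAT+eWAT members within 50 kb. These were 14.7% of the genes, where 3.67% of all genes had such a member. None of the 34 had a BAT+iWAT member. Of all genes, 3.49% had a BAT+iWAT member there, and none among 34 is not set apart from that share. Most of the 34 had regions of other kinds within 50 kb: 28 had one of both white lists, 26 one of all 3 lists, 19 an eWAT-alone and 12 an iWAT-alone region. Those classes are far larger. Of the regions within 50 kb of a start, the list held 1.18% in BAT+eWAT, from 5 genes. It held 0.477%, 0.856%, 0.328% and 0.242% in these 4 classes and 0.645% in BAT alone, a difference that was not tested. At the Cebpa, Lep and Agpat2 members iWAT was above 15 scaled reads, and the input limit alone kept it off the list. A region 22.4 kb from Cebpa, a transcription factor of adipocyte differentiation, had 36.0 in BAT and 57.4 in eWAT, against 24.7 in iWAT and 2.60 in the input (2.32-fold, 1.57 to 3.46). A region 28.3 kb from Lep, which encodes leptin, had 58.1 in BAT and 68.9 in eWAT, against 52.0 in iWAT and 5.21 in the input, a ratio of 1.32 (0.97 to 1.80) that counting error does not separate from 1. Agpat2, an enzyme of triglyceride synthesis, had a region 1.07 kb from its start with 24.9 in BAT and 27.4 in eWAT, against 18.9 in iWAT and 1.95 in the input. The start site of Acsl1, whose promoter is printed above, was the member closest to a start in either group, at 16 bp. Its eWAT value was 2.14-fold over iWAT (1.18 to 3.92).

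Transcription factors and coregulators had BAT+iWAT members at 5 of 33 genes (Ebf2, Ebf3, Klf4, Srebf1, Tcf7l2). The shares were 15.2% in BAT+iWAT and 6.06% in BAT+eWAT, where 3.49% and 3.67% of all genes had a member. These differences were not tested. Cebpa, described above, was among those with a BAT+eWAT member. A region 43.0 kb from Klf4, a Krüppel-like factor induced early in adipogenesis, had 30.4 in BAT, 125 in iWAT, 22.1 in eWAT and 2.60 in the input. Among Wnt and Notch genes, Lgr5, Sfrp2 and Tcf7l2 of 20 had BAT+iWAT members (15%) and Nkd1 a BAT+eWAT one (5%). These shares were not tested against those of all genes either. The region 40.0 kb from Lgr5, a Wnt-amplifying receptor, had 71.9 in BAT, 213 in iWAT, 7.95 in eWAT and 2.60 in the input, with iWAT 26.8-fold over eWAT (14.0 to 59.0). The 6 Groucho family genes had no member within 50 kb in either group, where 3.49% and 3.67% of all genes had one. With so few genes this is not set apart from those shares.

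Insulin signalling and glucose genes had members of both groups at similar numbers: Foxo1, Grb14, Irs1 and Pik3r1 of 35 in BAT+iWAT, and Insr, Pdk1 and Pik3r1 in BAT+eWAT. The shares were 11.4% and 8.57%, where 3.49% and 3.67% of all genes had a member, a difference that was not tested. Pik3r1 encodes the regulatory subunit of phosphoinositide 3-kinase, and its 2 intronic members lie side by side. The BAT+iWAT one (chr13:102531009-102531239, mm9) had 16.6 in BAT, 21.6 in iWAT, 9.71 in eWAT and 0 in the input. The BAT+eWAT one (chr13:102531634-102531864) had 22.1 in BAT and 35.3 in eWAT, against 18.4 in iWAT and 1.95 in the input. iWAT was 2.22-fold over eWAT (1.12 to 4.79) at the first and eWAT 1.92-fold over iWAT (1.19 to 3.11) at the second, an order that membership itself fixes. The insulin receptor gene Insr had a BAT+eWAT region with 16.6 in BAT and 19.4 in eWAT, against 9.98 in iWAT and 0.65 in the input.

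Mitochondrial genes were few: Hadha and Acadm of 19 fatty acid oxidation genes, 1 in each group in that order, and Atp5g3 and Ndufb4 of 18 oxidative phosphorylation genes in BAT+iWAT. The shares were 5.26% in each group and 11.1% in BAT+iWAT. Of all genes, 3.49% had a BAT+iWAT and 3.67% a BAT+eWAT member, and no difference was tested. Hadha, the trifunctional protein subunit, had 27.7 in BAT, 21.0 in iWAT, 16.8 in eWAT and 1.95 in the input, with a ratio of 1.25 (0.71 to 2.29). Acadm, medium-chain acyl-CoA dehydrogenase, had 24.9 in BAT and 21.2 in eWAT, against 13.7 in iWAT and 1.95 in the input, with a ratio of 1.55 (0.85 to 2.81). Neither pair of white values can be separated at this depth. The white-selective list of 18 genes had 1 member in each group, Agt and Lep (5.56% each).

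Genes that mark other cells of the tissue were also among the nearest genes. Fibroblast and preadipocyte genes had members at 2 of 27 in each group, Dpp4 and Lum in BAT+iWAT and Col1a2 and Dpp4 in BAT+eWAT. The region near Lum, a collagen-binding proteoglycan, had 27.7 in BAT, 126 in iWAT, 11.5 in eWAT and 1.95 in the input. Mesothelial genes had 1 of 7 in each group (Wt1 and Lrrn4), endothelial genes 1 of 12 in BAT+iWAT (Erg), and neuronal genes 1 of 9 in each (Gap43 and Snap25). Counts this small were not tested against the 3.49% and 3.67% of all genes. None of 11 macrophage and 6 skeletal muscle genes had a member, too few genes to be set apart from the 3.49% and 3.67% of all genes. How far cells other than adipocytes contribute to the differences between the depots was not tested.

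MicroRNA genes were the nearest gene of 37 BAT+iWAT members (3.72%) and 31 BAT+eWAT members (3.73%), near the 3.63% of all regions. An intronic BAT+iWAT region 1.5 kb from Mir199b had 24.9 in BAT, 22.6 in iWAT, 10.6 in eWAT and 0.65 in the input. A BAT+eWAT region 13.5 kb from Mirlet7b, a let-7 gene, had 33.2 in BAT and 58.3 in eWAT, against 24.7 in iWAT and 2.60 in the input. A BAT+eWAT region 47.9 kb from Mir30a had 19.4 in BAT and 36.2 in eWAT, against 14.2 in iWAT and 0.65 in the input. These 3 were picked after their values were seen.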

How the data were processed

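The deposited tables, 1 per depot, list TLE3 regions with nearest gene, annotation, distance to the nearest start site and 4 values. STAR, HOMER and mm9 are named without version or role, per the submitters' processing notes (region caller: not given in the sources used here). The values are a signal, reads per region that the authors scaled for library size, per the file headers. In each library the values were whole multiples of what 1 read is worth (100% within 0.1 read), so the reads behind them were inferred from that step, and counting intervals rest on this.

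Regions were matched by identifier. Log2 ratios add 1 scaled read. Shares carry Wilson, differences of shares Newcombe, medians order-statistic and ratios exact Clopper-Pearson 95% intervals on reads, all for counting error only; interval code was tested on simulated data. With 1 library per depot no test between depots was possible. Named members followed fixed rules: the 10 strongest by the lower listed value, the 10 widest white ratios, the 5 highest in BAT within 1 kb of a start site, genes with 3 or more members, list genes and those next to each limit. Irf5, Upp1, Acsl1, Agpat2, Irx5, the BAT+iWAT region of Pik3r1 and the microRNA genes stood outside these and were named after their values were seen. Members and lists were chosen with earlier results of these data known. Of 349 list genes, 294 were named in the tables. Nearest genes and distances are the authors'. Some list genes are not reported here. Motif analysis of the regions was not run, for want of an mm9 genome here. Python 3.11.15, pandas 2.3.3 and scipy 1.17.1 were used.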

Additional observations from a re-analysis of the deposited data

How the results depend on the processing

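Matching regions by an overlap of 1 bp gave 996 BAT+iWAT and 832 BAT+eWAT members and moved no result. The library scales matter most for BAT: over the strongest 25% of regions the median log2 ratio was -0.13 for iWAT over eWAT, -1.46 for BAT over iWAT and -1.41 for BAT over eWAT, and over the regions of all 3 lists -0.14, -0.66 and -0.75. Under these 2 scalings the median log2 ratio of BAT over the listed white library reversed to 1.11 and 0.32 in BAT+iWAT (-0.35 on the authors' scale). In BAT+eWAT, where it was -0.005 on the authors' scale, it rose to 1.41 and 0.74. The iWAT over eWAT median became 1.71 and 1.72 in BAT+iWAT and -0.71 and -0.70 in BAT+eWAT, and 1.27 and -0.71 with 5 scaled reads added.

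Requiring 30 scaled reads in both listed libraries left 229 and 216 members, with the input limit alone behind 57.6% and 86.1% of them, an iWAT over eWAT median of 1.99 in BAT+iWAT, a BAT over listed white median of -0.49 and -0.055, 4.37% of BAT+iWAT within 1 kb of a start site, and 9 and 5 list genes. With the third library below 15 scaled reads the iWAT over eWAT medians were 1.71 and -0.93, and 9 list genes were left in BAT+eWAT. The BAT over eWAT median of BAT+eWAT went from -0.005 (-0.040 to 0.025) to 0.058 (-0.005 to 0.060), and both intervals reached 0. With the third library below 0.5 of the listed white one, BAT+eWAT kept 347 members and 8 list genes, the iWAT over eWAT medians were 2.12 and -1.30, and the BAT over listed white medians -0.78 and -0.22. A limit of 20 scaled reads for the third library put 11.4% and 21.9% on the input limit alone. Wider windows gave 10.4% (10.35) and 16.1% within 5 kb of a start site and 93.6% and 93.9% with another region within 50 kb, and a window of 10 kb left 12 and 7 list genes. The cause was not tested beyond what fewer regions, wider windows or the scalings themselves fix. The other 48 values stayed within their intervals or within 1.5 times the count.

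No paired analysis was possible because each depot has 1 library. Depth limits BAT most, where a region entered the list on 6 reads, and the input came from iWAT only, so the input limit of the other depots rests on another depot's chromatin.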
